A study of Mus musculus with 15 samples.

Results

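T cell receptor variable segments are the gene pieces that give each T cell its own antigen receptor. The segments described here are the rows named Trav (alpha chain) or Trbv (beta chain) whose estimated counts over all 15 libraries summed to at least 30. This rule kept 87 of 165 such rows, 66 of 130 Trav and 21 of 35 Trbv, out of 57010 genes in the table. The members were thus chosen by their summed counts, which came mostly from 3 libraries with high thymus genes, so the members' higher level in those libraries is a description and not a finding. Just inside the rule were Trav8-1, Trav15n-2 and Trav15d-2-dv6d-2 with 30 counts each, and just outside it were Trav6d-5 with 27.15 counts and Trav12d-1 and Trav12n-1 with 25.5 counts each.

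RNA of lungs from C57BL/J mice was sequenced 30 days after the start of treatment. Silica_DMSO mice (n = 4, libraries 2, 4, 5 and 6) were given silica particles as nasal drops and then dimethyl sulfoxide (DMSO) on the second day, silica mice (n = 3, libraries 1, 2 and 7) silica alone, DMSO mice (n = 4, libraries 1, 4, 6 and 7) DMSO alone, and control mice (n = 4, libraries 1, 2, 4 and 7) physiological saline. The labels do not say whether libraries come from separate animals, so p-values measure the spread between libraries, and the extraction notes speak of retinas where the tissue field says lung. Library totals ran from 17434649 to 20829960 counts.

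A T cell receptor gene is assembled while the cell matures in the thymus: a variable segment is cut out of a long array and joined to a joining segment, in the beta chain with a diversity segment between them, and the product is spliced to a constant region (Trac for alpha, Trbc1 or Trbc2 for beta). The beta chain is assembled first and tested with a surrogate alpha chain, after which the alpha locus is opened and may be rearranged more than once in the same cell. Only cells whose receptor passes selection leave the thymus and reach organs such as the lung, where resident and innate-like T cells with particular segments are also found.

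The libraries labelled DMSO 7, silica_DMSO 4 and silica_DMSO 6 are called thymus-like below and the other 12 lung. This split comes from thymus genes measured in the same libraries, so nothing between the 2 sets is tested. The 5 markers of thymic epithelium summed to 1033 to 2156 CPM (counts scaled to the library total) in the thymus-like libraries and to 3.30 to 10.1 CPM in the lung libraries. The 7 markers of alveolar type 2 cells, a lung epithelium, summed to 206 to 7279 CPM in the thymus-like libraries and to 22960 to 49168 CPM in the lung libraries. Among the lung libraries, the share of counts in genes over 3000 bases was 11.5% to 24.2% in silica_DMSO 5, DMSO 4, silica 7, DMSO 1 and control 1, and higher in the others, so these 5 also stand apart.

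Several segments that carry the results are shown by the end of their transcript in the GENCODE M21 annotation, where the variable segment meets the joined part. All lie on chromosome 6. Capitals mark TGTGC, which starts with the TGT codon of the conserved cysteine that opens the third complementarity-determining loop, the part of the receptor that touches the antigen peptide.
Trbv3: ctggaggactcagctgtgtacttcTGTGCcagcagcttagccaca
Trbv19: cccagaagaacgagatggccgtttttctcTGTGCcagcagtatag
Trbv13-2: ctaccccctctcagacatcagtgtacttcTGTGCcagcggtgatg
Trbv13-3: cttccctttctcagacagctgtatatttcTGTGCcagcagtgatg
Trbv12-1: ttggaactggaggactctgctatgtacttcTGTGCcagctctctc
Trbv12-2: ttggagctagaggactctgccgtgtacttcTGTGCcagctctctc
Trbv31: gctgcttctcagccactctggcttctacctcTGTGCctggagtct
Trbv1: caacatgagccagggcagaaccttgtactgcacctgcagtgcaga

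The letters TGTGC, searched on the coding strand in the last 45 bases, were found in 129 of 163 annotated Trav and Trbv transcripts (79.1%), and in 19 of the 21 Trbv members. Trbv1 is one of those without them. Trbv12-1 and Trbv12-2 were identical at 340 of 385 aligned bases (88.3%), and Trbv13-2 and Trbv13-3 at 308 of 340 (90.6%). A read from a shared stretch could fit either segment of such a pair. Their counts over the 15 libraries summed to whole numbers, 1844 and 1208 for the first pair and 1954 and 1197 for the second. Whether any reads were divided between these neighbours was not tested.

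The 21 Trbv members together made up 352, 582 and 574 CPM in DMSO 7, silica_DMSO 4 and silica_DMSO 6, and 1.58 to 13.7 CPM in the 12 lung libraries, with a median of 7.84 CPM. The 66 Trav members summed to 76.3, 132 and 103 CPM in the same 3 libraries and to 0.105 to 6.94 CPM in the lung libraries, with a median of 3.48 CPM. No lung library came near the thymus-like libraries in either chain, and control 1 was the lowest in both. In counts, the thymus-like libraries held 6252, 11207 and 10710 from Trbv, while the lung libraries held 30 to 268, so single segments in a lung library often rest on fewer than 20 counts. In bulk RNA, more T cells and more receptor RNA per cell cannot be told apart.

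**Figure D1:**
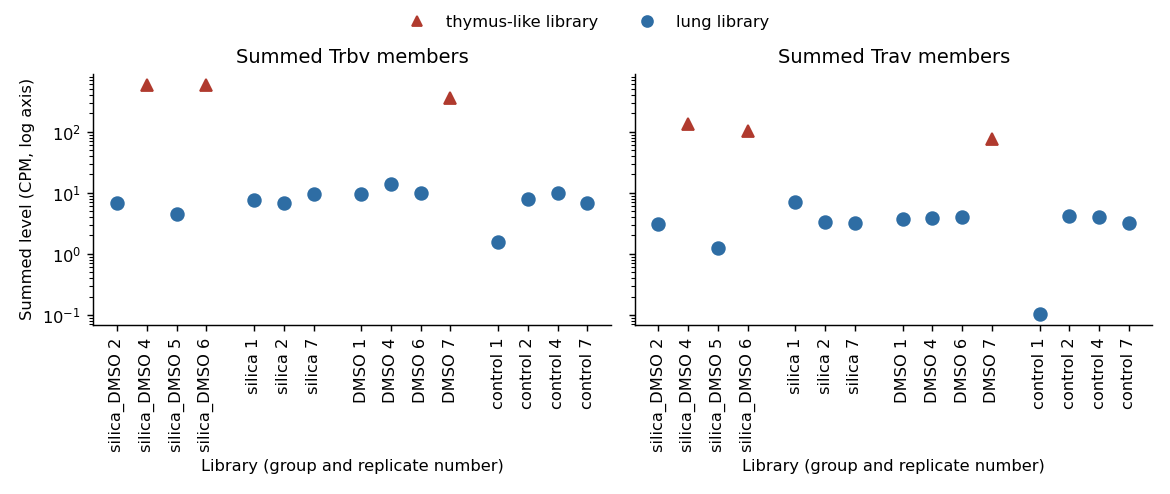
Summed level of the 21 Trbv members (left) and the 66 Trav members (right) in each of the 15 libraries, in CPM on a log axis, by group and replicate number; triangles are the 3 thymus-like libraries and circles the 12 lung libraries. The triangles lie at 352 to 582 CPM for Trbv and 76.3 to 132 CPM for Trav, and control 1 is the lowest point in both panels.

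Constant regions followed the variable segments. Trac, the constant region of every alpha chain, stood at 222, 332 and 338 CPM in DMSO 7, silica_DMSO 4 and silica_DMSO 6 and at 2.77 to 22.0 CPM in the lung libraries. Trbc1 and Trbc2 together stood at 1523, 2088 and 2840 CPM in the thymus-like libraries and at 22.0 to 57.8 CPM in the lung libraries. For every 100 counts of Trbc1 and Trbc2 there were 23.1, 27.9 and 20.2 Trbv counts in the thymus-like libraries, and 22.0 to 32.7 in 10 of the lung libraries. The other two lung libraries were control 1 with 2.73 and silica_DMSO 5 with 10.4. For every 100 Trac counts there were 34.4, 39.9 and 30.5 Trav counts in the thymus-like libraries, and 22.7 to 45.6 in the lung libraries other than control 1, which had 1.15.

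Control 1 thus held 1097 counts of Trbc1 and Trbc2, the most of any lung library, with only 30 Trbv and 2 Trav counts. Its share of counts in genes over 3000 bases was 24.2%, and that of silica_DMSO 5 was 11.5%, but DMSO 4 at 12.4% and DMSO 1 at 23.7% had ordinary ratios of 29.2 and 22.0 Trbv counts per 100 constant counts. The part of this coverage difference in the low ratios was not tested.

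The chains were weighted differently. For every 100 Trbv counts there were 21.7, 22.8 and 17.9 Trav counts in DMSO 7, silica_DMSO 4 and silica_DMSO 6. The lung libraries had 27.9 to 89.8, with control 1 at 6.67 as the exception, and silica 1 was the highest. Trac per 100 counts of Trbc1 and Trbc2 was 14.6, 15.9 and 11.9 in the thymus-like libraries, inside the range of 6.38 to 86.2 in the lung libraries, whose median was 46.4.

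**Figure D2:**
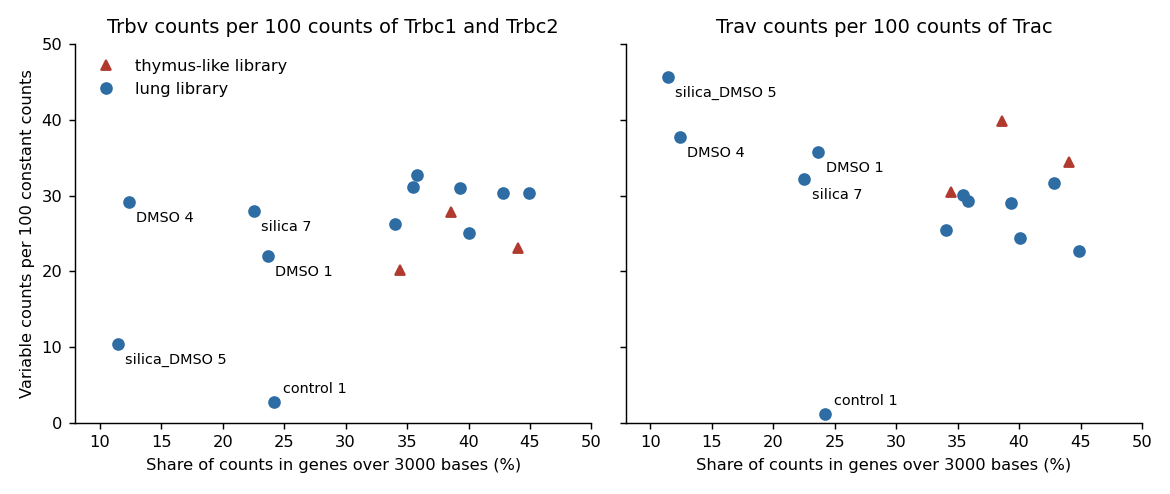
Trbv counts per 100 counts of Trbc1 and Trbc2 (left) and Trav counts per 100 Trac counts (right) against the share of counts in genes over 3000 bases (%), 1 point per library; triangles are thymus-like and circles lung. Control 1 lies at 2.73 and 1.15, and silica_DMSO 5 at 10.4 for Trbv but 45.6 for Trav.

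In the beta chain, the 3 thymus-like libraries used the segments in almost the same proportions. Pearson's r over the 21 Trbv shares was 0.968 to 0.984 between pairs of thymus-like libraries, 0.365 to 0.899 between a thymus-like and a lung library, and 0.0494 to 0.859 between pairs of lung libraries. These values share depth as well as biology, since a lung library spreads 30 to 268 counts over 21 segments. When the lung libraries were pooled, to 1815 counts, r with the pooled thymus-like libraries over the 21 segments was 0.800, and 13.5% of the use was not shared. Intervals given below are exact Clopper-Pearson 95% intervals and cover counting error only.

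Trbv3 was the most counted segment of the thymus-like libraries, with 10.5%, 10.1% and 9.60% of Trbv counts in DMSO 7, silica_DMSO 4 and silica_DMSO 6, and a mean of 9.61% ± 3.91 in the lung libraries (SD, n = 12). Trbv2 followed with 7.49% ± 0.80 (SD, n = 3) in thymus-like and 6.65% ± 2.76 in lung libraries, and Trbv5 had 6.56% ± 0.48 in thymus-like and 5.61% ± 3.25 in lung libraries. For these 3 segments the lung libraries lay on both sides of the thymus-like ones. Reads fall on longer transcripts more often, so these are shares of counts; by deposited TPM, which is per effective length, Trbv13-2 led in the thymus-like libraries with 10.5% ± 0.40 of Trbv TPM and Trbv3 came sixth with 6.41% ± 0.34. Trbv13-2, a segment of classical and of many natural killer T cells, held 6.51% ± 0.52 of counts in thymus-like and 5.43% ± 2.42 in lung libraries.

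Trbv12-1 had a lower share in lung than in thymus-like libraries. It took 6.03%, 6.59% and 6.36% of Trbv counts in DMSO 7, silica_DMSO 4 and silica_DMSO 6, on 377, 739 and 681 counts. In the 12 lung libraries its share ran from 0.530% to 6.23%, with a median of 2.50%, on 1 to 11 counts each. Of the lung libraries, 11 lay below all 3 thymus-like ones, and DMSO 1, with 11 counts, was the other. Pooled, the lung share was 2.59% (1.91% to 3.43%). Its neighbour Trbv12-2 had 4.03% ± 0.27 in thymus-like libraries and 3.25% (2.48% to 4.17%) in pooled lung.

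Trbv31, which lies apart from the array beyond the constant regions and in the opposite orientation, so that it joins by inversion, was also lower in lung. Its share was 5.05%, 5.55% and 5.27% in DMSO 7, silica_DMSO 4 and silica_DMSO 6, and 0% to 7.49% in the lung libraries, with a median of 2.77%. Of these, 10 lay below the thymus-like libraries and control 2, with 11 counts, above them. Pooled lung stood at 3.36% (2.58% to 4.30%).

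Trbv19, Trbv13-3 and Trbv1 had higher shares in lung. Trbv19 was at 7.49%, 6.91% and 7.95% in DMSO 7, silica_DMSO 4 and silica_DMSO 6, and above all of them in 11 of 12 lung libraries, with a median of 11.6% and a pooled share of 11.3% (9.87% to 12.8%). Silica_DMSO 5, with 1 count or 1.07%, was the exception, and silica 2 the highest, with 24 counts or 20.4%. Trbv13-3 was at 3.83% ± 0.07 in thymus-like libraries and at 2.72% to 12.7% in the lung libraries, 10 of which lay above; the pooled lung share was 6.67% (5.56% to 7.91%). By TPM share, Trbv13-3 was eighth among the beta segments of the thymus-like libraries, with 6.18% ± 0.33, and first in the lung libraries, with 11.3% ± 5.51.

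Trbv1 varied most between lung libraries. It held 5.90%, 6.33% and 6.20% in DMSO 7, silica_DMSO 4 and silica_DMSO 6, and 8.15% in the median lung library. Control 4 had 47 Trbv1 counts, 24.9% of its Trbv counts (18.9% to 31.7%), DMSO 4 had 36 counts or 13.4%, and silica_DMSO 5 had 12 counts or 12.9%. The other lung libraries lay between 2.99% and 10%, on 3 to 15 counts.

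**Figure D3:**
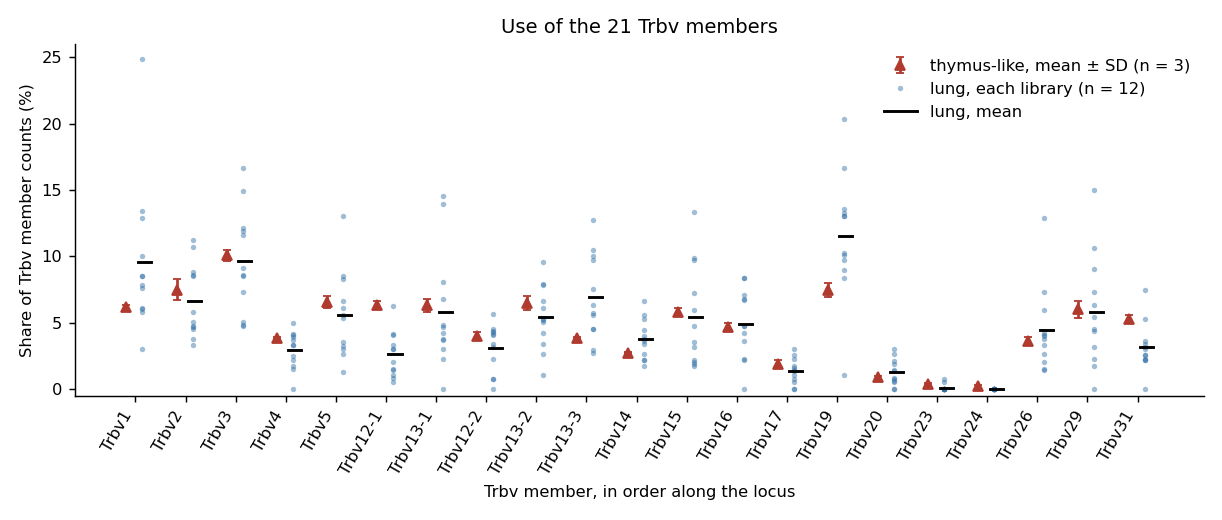
Share of Trbv member counts (%) of each of the 21 Trbv members, in their order along the locus; red triangles give the mean ± SD of the 3 thymus-like libraries, small circles each of the 12 lung libraries and black bars their mean. Trbv12-1 and Trbv31 have red triangles above the lung mean, Trbv19, Trbv13-3 and Trbv1 below it, and the highest circle is Trbv1 in control 4 at 24.9%.

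Over all 252 combinations of a Trbv member and a lung library, the interval of the lung share lay above the mean thymus-like share in 20 and below it in 19. With 30 to 268 counts in a library these intervals are wide, so a low share of a rare segment could seldom be told from its thymus-like share. Over 726 combinations of a Trav member and 1 of 11 lung libraries, 23 intervals lay above and 1 below. The thymus-like mean was taken as fixed, and lung libraries also differed among themselves. These counts are thus a description and do not measure a difference between the sets.

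Over all Trbv members, 28169 counts lay in the thymus-like and 1815 in the lung libraries, so a rarely used segment can pass the rule through the thymus-like libraries alone, as Trbv24 did. Trbv23 had 21, 52 and 43 counts in DMSO 7, silica_DMSO 4 and silica_DMSO 6, and 1 count each in silica_DMSO 2 and control 4 with 0 in the other lung libraries. Its share was 0.400% ± 0.064 in the thymus-like libraries and 0.110% (0.0133% to 0.397%) in pooled lung. Trbv24, the only member annotated as a pseudogene, had 20, 17 and 16 counts in DMSO 7, silica_DMSO 4 and silica_DMSO 6 and 0 in all 12 lung libraries. Its share was 0.207% ± 0.098 in the thymus-like libraries, and 0 of 1815 Trbv counts in lung allows up to 0.165% at a limit of 3 counts and up to 0.203% by the exact interval. Both limits lie below the 0.320% of DMSO 7 and above the 0.152% and 0.149% of silica_DMSO 4 and silica_DMSO 6, so a difference from these last libraries was not detectable at this depth.

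The end of Trbv24 is shown beside that of Trbv26, a functional segment, because the annotated difference can be read in it. The capitals TAG mark a stop codon in the frame of the cysteine codon.
Trbv24: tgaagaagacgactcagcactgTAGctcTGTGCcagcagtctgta
Trbv26: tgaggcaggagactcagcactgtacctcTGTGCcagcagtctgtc

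Counted from 1 at the 5′ end of the printed bases, with the Trbv26 base first, the ends differ as G4A, C6A, G9A, A10C, C25G and C45A, and C25G is the one inside the TAG codon. Trbv26 itself had 222, 377 and 420 counts in DMSO 7, silica_DMSO 4 and silica_DMSO 6, or 3.61% ± 0.28 of Trbv counts, and 4.43% ± 3.17 in the lung libraries. Of 33 Trav and Trbv rows annotated as pseudogenes, 24 had no count in any library.

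Evenness was measured as the effective number of segments (inverse Simpson index, corrected for the number of counts), which equals the number of members if all are used equally and falls as a few take over. For Trbv it was 16.46, 16.50 and 16.49 in DMSO 7, silica_DMSO 4 and silica_DMSO 6, and 9.77 to 16.5 in the lung libraries (13.6 ± 2.21, SD, n = 12). Control 2 reached the thymus-like level with 16.5, and control 4, where Trbv1 stood out, was the lowest. Pooled, the lung libraries gave 15.4. At a matched 90 counts, the Shannon effective number was 15.8 ± 0.05 in the thymus-like libraries (n = 3) and 14.3 ± 1.36 in the 11 lung libraries that reached 90 counts, with 15.9 as the highest.

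For Trav the effective number was 45.6, 46.5 and 46.4 in DMSO 7, silica_DMSO 4 and silica_DMSO 6, and 15 to 44.6 in 11 lung libraries (31.5 ± 8.78, SD), with silica_DMSO 5 on 26 counts the lowest and control 7 the highest. Pooled over the 12 lung libraries it was 41.0. At a matched 50 counts the Shannon number was 28.0 ± 0.16 in the thymus-like libraries and 23.9 ± 2.30 in 10 lung libraries. By the inverse Simpson index no lung library reached the thymus-like values in Trav. At the matched depth the ranges overlapped, with control 7 at 27.80 just above DMSO 7 at 27.78, and for Trbv they overlapped by both measures.

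By group, the lung libraries of silica_DMSO had Trbv effective numbers of 13.5 and 10.6, those of silica 13.2, 11.5 and 15.002, those of DMSO 14.7, 14.1 and 16.2, and those of control 12.4, 16.5, 9.77 and 15.9. Both silica_DMSO values lay below all 3 DMSO values, and the other pairs of groups overlapped. Trav effective numbers in the lung libraries were 26.03 and 15 in silica_DMSO, 26.8, 23.2 and 35.8 in silica, 40.7, 40.7 and 34.7 in DMSO, and 29.9, 29.4 and 44.6 in control. Both silica_DMSO values, of which the 15 rests on 26 counts, lay below all DMSO and all control values. At the matched 50 counts, silica_DMSO 2 had a Shannon number of 21.9 and control 4 one of 21.8, and silica_DMSO 5 had too few counts. By the inverse Simpson index, the control range, 29.4 to 44.6, held all 3 DMSO values and 1 of the 3 silica values.

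**Figure D4:**
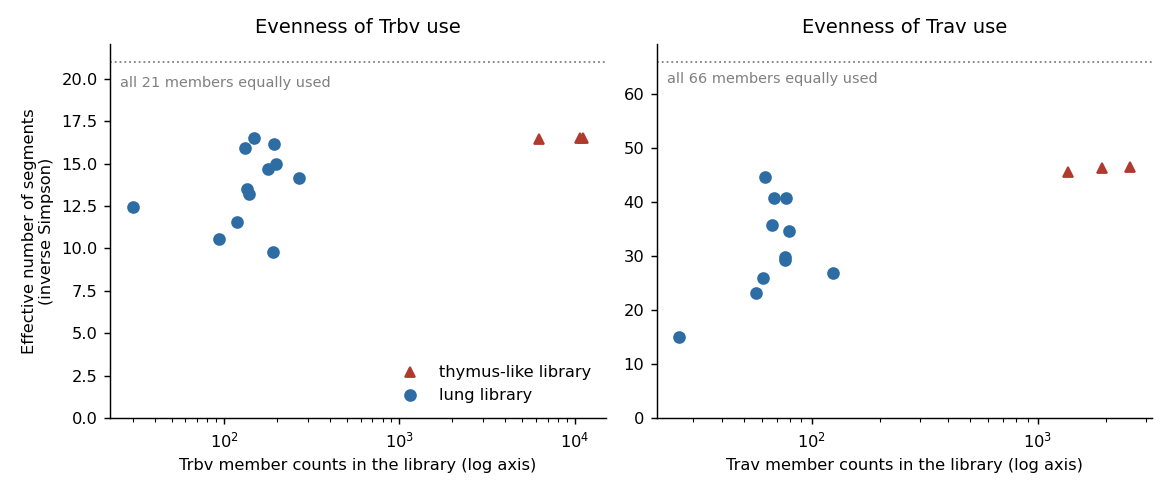
Effective number of segments (inverse Simpson index) of Trbv (left) and Trav (right) against the number of member counts in the library (log axis), 1 point per library with at least 20 counts; triangles are thymus-like and circles lung, and the dotted line marks equal use of all members. The triangles lie at 16.46 to 16.50 for Trbv and at 45.6 to 46.5 for Trav, and the circles spread from 9.77 to 16.5 and from 15 to 44.6.

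The alpha locus of C57BL mice holds a stretch of variable segments in several near-copies, marked by d or n in their names, and this limits what the counts can say of 1 segment. Of the members, 16 form 8 pairs with identical transcripts, and these were also the pairs with equal counts in all 15 libraries, such as Trav14d-1 and Trav14n-1. Their counts were split evenly between the copies and cannot be assigned to either. Merging rows that differ only in d or n, the Trav effective number was 24.7 to 26.1 in the thymus-like libraries and 7.74 to 29.1 in the lung libraries, whose highest value then lay above the thymus-like range.

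Trav11 and Trav11d, the segments that in mouse encode the invariant alpha chain of natural killer T cells, show the same limit. Trav11 had 0 counts in all libraries and Trav11d 71. The annotated transcripts, on chromosome 14, are identical over 342 bases, and Trav11 has 1 base more, in capitals.
Trav11d: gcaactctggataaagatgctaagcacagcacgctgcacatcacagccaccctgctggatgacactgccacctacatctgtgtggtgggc
Trav11: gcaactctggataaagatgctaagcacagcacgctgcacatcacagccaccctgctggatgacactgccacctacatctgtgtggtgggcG

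Trav11d had 9, 25 and 23 counts in DMSO 7, silica_DMSO 4 and silica_DMSO 6, or 0.947% ± 0.27 of Trav counts. Among the lung libraries, silica 7 had 6 counts or 8.96% and DMSO 1 had 3 counts or 4.41%, the other lung libraries with any had 1 count each, and 5 had none. Trav1, the segment of mucosal-associated invariant T cells, had 14, 14 and 16 counts in DMSO 7, silica_DMSO 4 and silica_DMSO 6, or 0.805% ± 0.24. It had 6 counts in DMSO 4 (7.79%), 4 in silica_DMSO 5 (15.4%), 2 each in silica 1 and silica 2, and 0 in the other 8 lung libraries. These lung shares rest on at most 6 counts.

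The alpha segment of highest mean count share in the thymus-like libraries was Trav14d-3-dv8, one of the segments that can also join in the delta chain. It had 4.87%, 4.83% and 4.61% of Trav counts in DMSO 7, silica_DMSO 4 and silica_DMSO 6. In the 11 lung libraries with at least 20 Trav counts it had 0% to 9.21%, with a median of 3.90%, so these lay on both sides of the thymus-like libraries. Trav6-3 held 4.48% ± 0.21 in thymus-like libraries and 2.61% ± 2.55 in the lung libraries, Trav6-7-dv9 3.61% ± 0.47 and 4.64% ± 3.91, and Trav7-4 3.22% ± 0.40 and 3.06% ± 2.80. Trav3-3 was the first segment of the lung libraries by count share, with 5.94% ± 4.83 against 3.23% ± 0.16 in the thymus-like ones. It was lifted by silica_DMSO 5 and silica_DMSO 2, at 15.4% and 14.8% on 4 and 9 counts, and the pooled lung share was 5.04% (3.61% to 6.82%). Trav4-3 and Trav6n-6 followed in lung with 4.45% ± 4.48 and 4.24% ± 2.74, against 2.79% ± 0.59 and 2.46% ± 0.71 in thymus-like libraries.

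Among Trav members with at least 100 counts, the largest ratios between the 2 sets rested on few lung counts. Trav8n-2 had 148 counts in the thymus-like libraries and 6 in the lung libraries, which is 0.775% (0.285% to 1.68%) of pooled lung Trav counts against a mean of 2.52% ± 0.36. Trav9-2 had 1.94% ± 0.11 in thymus-like libraries and 0.985% (0.447% to 2.03%) in pooled lung. On the other side, Trav6-5 had 2.10% ± 0.30 in thymus-like libraries and 4.50% (3.17% to 6.23%) in pooled lung, and Trav16n 1.44% ± 0.23 and 2.45% (1.48% to 3.81%). Trav4-4-dv10 had a high mean lung share only through control 1, where 1 of 2 Trav counts was its own; pooled it held 0.816% (0.285% to 1.68%) in lung and 2.18% ± 0.17 in thymus-like libraries.

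By family, Trav14 (9 members) was the largest in the thymus-like libraries with 19.5% ± 1.12 of Trav counts, and 15.8% (13.3% to 18.5%) in pooled lung. Trav6 (10 members) held 16.9% ± 0.81 in thymus-like and 19.7% (17.02% to 22.8%) in pooled lung. Trav8 had 3.67% ± 0.11 and 1.81% (0.992% to 3.02%), Trav9 8.60% ± 0.89 and 6.07% (4.50% to 7.99%), and Trav3 8.25% ± 0.07 and 11.7% (9.57% to 14.2%). Segments shared with the delta chain, 8 members with dv in their names, made up 15.9% ± 1.53 of Trav counts in the thymus-like libraries and 13.3% ± 4.34 in 11 lung libraries.

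**Figure D5:**
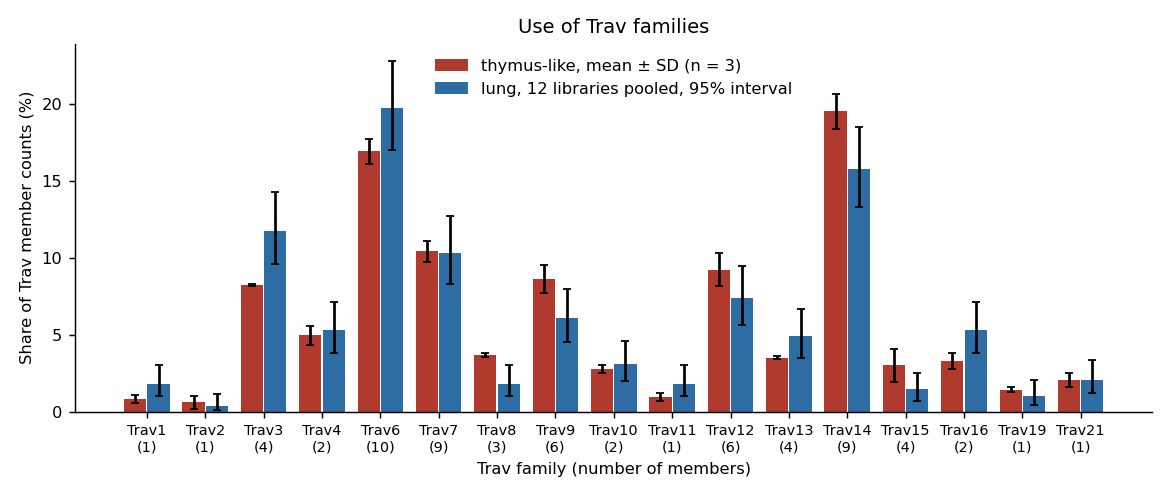
Share of Trav member counts (%) by Trav family, with the number of members in brackets; red bars are the mean ± SD of the 3 thymus-like libraries and blue bars the 12 lung libraries pooled with their exact 95% interval. Trav14 is the tallest red bar at 19.5% and Trav6 the tallest blue bar at 19.7%. The red bars of Trav8, Trav9, Trav14 and Trav15 lie above the blue intervals, and those of Trav1, Trav3, Trav6, Trav11 and Trav16 below them. The red bars are means, and for Trav1, Trav6, Trav9, Trav11, Trav14 and Trav15 not every thymus-like library lies outside the blue interval.

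Along the alpha locus, the 28 annotated members nearest Trac, which are known to be favoured in the first rearrangements of a cell, took 43.2% to 44.0% of counts in the thymus-like libraries and 38% to 55.8% in 11 lung libraries. The 18 members farthest from Trac took 21.03% to 21.8% in thymus-like and 16.3% to 31.8% in lung libraries. The lung range held the thymus-like values in both. Joining and diversity segments gave no counts in any library in these tables, over 60 Traj, 14 Trbj and 2 Trbd rows, whose longest joining segment has 72 bases, so which joining segments went with which variable ones is not analysed here.

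Between treatments, no T cell receptor segment passed the test. In edgeR's quasi-likelihood test over 17879 genes, 65 of the 87 members passed the filter on low counts, which works by group and so lets in members that are high in the thymus-like libraries. At a Benjamini-Hochberg adjusted p under 0.05, 0 of 65 members were called in silica_DMSO against silica, silica_DMSO against DMSO, silica against control, DMSO against control and the silica by DMSO interaction, and 0% of all genes were called in each. At an unadjusted p under 0.05 there were 40 members for silica_DMSO against silica, where 5.91% of all genes lay there, 34 for DMSO against control (7.13% of all genes), and 0 in the other 3 comparisons. Both comparisons have thymus-like libraries in 1 of their groups only.

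The members with the smallest p show what these differences rest on. For silica_DMSO against silica this was Trbv26, with 2 and 12 counts in silica_DMSO 2 and 5, 377 and 420 in silica_DMSO 4 and 6, and 2, 5 and 4 counts in silica 1, 2 and 7. Without silica_DMSO 4 and 6 the range of the silica_DMSO group starts at the level of the silica group. Its log2 fold change was 5.57 ± 1.68 (SE, adjusted p = 0.708 by edgeR), and 1.67 ± 1.03 (adjusted p = 0.997) when the 3 thymus-like libraries were left out. For DMSO against control it was Trbv17, with 3, 6, 3 and 136 counts in DMSO 1, 4, 6 and 7, and 0, 2, 1 and 1 counts in control 1, 2, 4 and 7. The log2 fold change was 5.09 ± 1.70 (adjusted p = 0.649 by edgeR), and the highest count by far was that of DMSO 7. The other DMSO libraries, at 3 to 6 counts, also lay above the control libraries, at 0 to 2. Trbv17 did not pass the filter without the thymus-like libraries, so its fold change without them was not measured. For silica_DMSO against DMSO the smallest p was that of Trav3-3, at 1.47 ± 1.03 (adjusted p = 0.998 by edgeR). For silica against control it was shared by Trav14d-1 and Trav14n-1 (adjusted p = 1 by edgeR), which had 7, 0.5 and 1 estimated counts each in silica 1, 2 and 7 and 0 to 0.5 in the control libraries.

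Constant regions moved with the segments in the fits of all 15 libraries where only 1 of the groups compared holds thymus-like libraries. In silica against control, where neither group does, they did not all move with them. In silica_DMSO against silica, the log2 fold changes were 3.40 ± 1.35 for Trac, 5.09 ± 1.69 for Trbc1 and 5.43 ± 1.76 for Trbc2 (adjusted p = 0.708 for each by edgeR). In DMSO against control they were 2.28 ± 1.15, 3.61 ± 1.39 and 3.31 ± 1.40 (adjusted p = 0.649 for each by edgeR), and in silica against control 0.21 ± 1.18, 0.05 ± 1.36 and -0.53 ± 1.40 (adjusted p = 1 for each by edgeR). Without the 3 thymus-like libraries, Trac, Trbc1 and Trbc2 came to -0.69 ± 0.39, 1.02 ± 0.66 and 1.08 ± 0.66 in silica_DMSO against silica (adjusted p = 0.997 for each by edgeR), and to 0.17 ± 0.32, 0.75 ± 0.56 and 0.43 ± 0.55 in DMSO against control (adjusted p = 0.544 to 0.788 by edgeR). Of 20 genes of the T cell receptor complex and its signalling, such as Cd3e and Lck, all 20 were tested and none was called in any of the 5 comparisons. Their median log2 fold change was 3.79 in silica_DMSO against silica, 1.24 in silica_DMSO against DMSO, 0.24 in silica against control and 2.69 in DMSO against control, while the medians of all genes were 0.05, 0.00, 0 and 0.14. The medians of the 65 members were 4.35, 1.42, 0.34 and 3.43. Without the 3 thymus-like libraries, the 20 genes had medians of 0.08, -0.29, 0.21 and 0.38 in the same order. The medians of all genes were then -0.02, 0.05, -0.03 and -0.04.

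Another test called some members. DESeq2's Wald test called 6 of 65 members in silica_DMSO against silica, where it called 0.375% of all genes. These were Trbv12-1, Trbv26, Trbv3, Trbv31, Trbv2 and Trbv1, with log2 fold changes of 5.05 to 7.18, all in a group where 2 of the 4 libraries are thymus-like. It called 0 members in DMSO against control (0.352% of all genes), silica against control (0.246%), silica_DMSO against DMSO (0.00559%) and the interaction (0.0447%). In DMSO against control it gave no adjusted p for 25 of the 65 members, and in silica against control for 41 of them, so these calls cover only the rest.

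Without the thymus-like libraries, 12 Trbv members and no Trav member passed the filter among 17630 genes. In edgeR's test, 0 of the 12 were called in any comparison, with 0.0113% of all genes called in silica against control and 0% in the other 4. Trbv13-3 had 8, 26 and 11 counts in DMSO 1, 4 and 6 and 3, 4, 12 and 6 counts in control 1, 2, 4 and 7. The DMSO and control counts overlapped, and the log2 fold change was 1.73 ± 0.73 (adjusted p = 0.513 by edgeR). Trbv13-1 had the smallest p in silica against control, with a log2 fold change of 1.34 ± 0.96 (adjusted p = 1.00 by edgeR).

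Trbv19 had the smallest p in the comparisons that involve silica_DMSO without the thymus-like libraries. It had 13 and 1 counts in silica_DMSO 2 and 5, 18, 24 and 20 in silica 1, 2 and 7, 23, 24 and 26 in DMSO 1, 4 and 6, and 5, 15, 25 and 11 in control 1, 2, 4 and 7. Both silica_DMSO libraries lay below all silica and DMSO ones and overlapped the control libraries. The log2 fold change of silica_DMSO against DMSO was -2.03 ± 0.77 (unadjusted p = 0.0223, adjusted p = 1.00 by edgeR), and the interaction was -2.67 ± 0.96 (unadjusted p = 0.0173, adjusted p = 1.00 by edgeR). Both missed the threshold and rest on 2 silica_DMSO libraries, 1 of which, silica_DMSO 5, had few variable counts for its constant counts.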

How the data were processed

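Lung RNA of 15 libraries in 4 groups was compared, with groups and replicate numbers from the labels. The count table deposited by the authors gives an expected count per gene in each library, and between 7.52% and 10.03% of a library's values are not whole. The authors also deposited TPM, and beside both an other value, each gene's length in bases. Bowtie 0.12.2 and build mm8 are named in the submitters' processing notes; which program counted is not stated in the labels or headers, and neither is how reads that match several segments were treated. The authors' 8 columns of group means were not used.

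Members and lists were chosen with earlier results of these data known. Shares are counts of a member over the counts of all members of its chain. Counts were rounded, filtered with filterByExpr by group (smallest count 10, smallest total 15), scaled by TMM and tested with edgeR 4.0.16 (quasi-likelihood, robust; R 4.3.3) in 1 fit of 4 group means, adjusted over all genes tested. DESeq2 1.42.0, the label's number as a block, other filters and scalings, and leaving out libraries were alternatives. The self-test on simulated data was run first. The effective number is the unbiased inverse Simpson index, given from 20 counts up. Transcript sequences and locus order come from GENCODE M21 by gene ID (85 of 87 members, all of the file's length); its build is not mm8, so no coordinates are given. Python 3.11.15, pandas 2.3.3, SciPy 1.17.1, Biopython 1.88 and matplotlib 3.10.9 were used. Library totals of 17434649 to 20829960 counts leave 2 to 124 Trav and 30 to 268 Trbv counts in a lung library.

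Segments named were the 5 of highest mean share per chain in each set of libraries, the 3 highest and 3 lowest ratios among members with at least 100 counts, the smallest p per comparison, Trav11, Trav11d, Trav1, Trbv13-2, Trbv31, Trbv1, the constant regions and the rows at the edge of the rule. Trbv12-2, Trbv24, Trbv26, the families and the dv segments were added after their values were seen.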

Additional observations from a re-analysis of the deposited data

Results flagged for a closer look

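Within the groups of 4 libraries, 78 sets of values were examined for a library far from the other 3, and 13 values passed the limit (Dixon's ratio at 95%). That limit passes about 1 in 20 sets of independent normal values of equal spread. Many of these sets hold shares on few counts, ties at 0, or thymus-like beside lung libraries. The 13 values therefore cannot be set against that rate. DMSO 7, a thymus-like library, stood apart from the other DMSO libraries with a summed Trbv level of 351.7 CPM against 9.57 to 13.7, a summed Trav level of 76.29 CPM against 3.68 to 4.06, and a Trbv23 share of 0.336% against 0% in each. Control 1 had 2.735 Trbv counts per 100 counts of Trbc1 and Trbc2, and the other control libraries 30.4 to 31.1. Control 4 held the only Trbv23 count of the control group, a share of 0.530%.

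The other such values are Trav shares on few counts. DMSO 4 had 9.091% of Trav counts from Trav7-4 against 2.53% to 2.94% in the other DMSO libraries, and 7.792% from Trav1 against 0% to 1.03%. DMSO 1 had 4.412% from Trav11d against 0% to 0.664%, and 0% from Trav6-7-dv9 against 3.90% to 4.58%. Silica_DMSO 5, with 26 Trav counts, had 15.38% from Trav1 against 0% to 0.833% in the other silica_DMSO libraries, and 0% from Trav14d-3-dv8, Trav7-4 and Trav4-4-dv10, where the others had 4.61% to 4.93%, 3.25% to 3.60% and 2.17% to 2.31%.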

How the results depend on the processing

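DESeq2's Wald test called 44 genes in silica against control, 63 in DMSO against control, 67 in silica_DMSO against silica, 1 in silica_DMSO against DMSO and 8 in the interaction, where edgeR called 0 in each, with 522, 1275, 1056, 305 and 297 genes at an unadjusted p under 0.05. Without the 3 thymus-like libraries edgeR called 2 genes in silica against control and 0 in the other 4 comparisons. The other scalings, filters and single libraries left out gave 0 calls. Leaving out the thymus-like libraries turned the log2 fold change of Trac in silica_DMSO against silica to -0.69, that of Trbv19 in silica_DMSO against DMSO to -2.03 from 1.43, and its interaction to -2.67 from 0.78. In silica against control, leaving out 1 library gave -0.064 to 0.35 for Trac, -0.18 to 0.53 for Trbc1 and -0.85 to 0.022 for Trbc2, and the cause was not tested. With the replicate number as a block, 0 genes were called in each comparison and Trbc1 in silica against control came to -0.25. Same-numbered libraries did not deviate together (13 pairs, 4 with a correlation over 0.1), and the numbers were not taken as pairs. Correlations of the other pairs ran from -0.761 to 0.804. A pairing could be hidden in so wide a spread, so this check cannot exclude it.

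The summed levels, as differences of group means in log2 CPM, moved by less than the spread between libraries under every alternative run. This spread was the larger of the groups' SDs with all libraries in. Thymus-like libraries widen it in the groups that hold them, so staying inside it does not show that a level is stable. Without the thymus-like libraries, however, Trbv went to -0.52 from 2.84 in silica_DMSO minus silica, to -0.98 from 1.12 in silica_DMSO minus DMSO, and to 1.01 from 2.27 in DMSO minus control. Trav went to -1.09 from 1.86, to -0.98 from 0.89 and to 1.34 from 2.42 in the same order. The control mean includes control 1, with 0.105 CPM of Trav and 1.58 CPM of Trbv. Control 2, 4 and 7 had 3.22 to 4.11 CPM of Trav and 6.84 to 9.87 CPM of Trbv. DMSO 1, 4 and 6 had 3.68 to 4.06 CPM and 9.57 to 13.7 CPM, so apart from control 1 the ranges overlapped in both chains. Leaving out 1 library at a time gave 1.13 to 2.89 for Trav in DMSO minus control, and 1.01 to 2.75 for Trbv. The lowest Trav value was that without control 1, and the lowest Trbv value that without DMSO 7. Control 1 and DMSO 7 were not left out together, so a DMSO difference without both was not tested.

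The mean Trav effective number was 46.2 in thymus-like and 31.5 in lung libraries. In the thymus-like libraries it became 52.8 by Shannon entropy, 28.0 by Shannon at 50 counts, 45.7 by TPM shares, 25.3 with copies merged, 9.20 with families merged and 53.5 over every Trav row. In the lung libraries it became 20.3 by TPM shares, 20 with copies merged and 9.10 with families merged. For Trbv, 16.5 in thymus-like libraries became 17.7 by Shannon, 15.8 by Shannon at 90 counts, 16.1 by TPM, 11.9 by family, 16.52 over every row and 16.02 over members with at least 300 counts, and 13.6 in lung libraries became 10.5 by family. Some of these indices differ in scale by construction. The Shannon number over all counts and the TPM index are not corrected for the number of counts. Both are lowered in libraries with few counts, so their direction between the sets is no support. The thymus-like mean stayed above the lung mean in each alternative listed, but with Trav families merged the sets hardly differed. There the means were 9.20 ± 0.42 (SD, n = 3) and 9.10 ± 1.97 (SD, n = 11). The lung median of 9.875 then lay above the thymus-like median of 9.23. Members of at least 300 counts were not run for Trav, where 1 segment has as many. In a lung library, 2 to 124 Trav counts cannot resolve single segments.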

Other observations

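Gamma-delta T cells carry a receptor of other chains, and a pairing of Trgv6 with Trdv4 is known from mouse lung and other mucosal and barrier tissues. Trdv4 had 5, 3 and 5 counts in DMSO 7, silica_DMSO 4 and silica_DMSO 6, and 127 counts over the 12 lung libraries. It made up 9.76%, 2.66% and 6.05% of Trdv counts in these thymus-like libraries and 50% to 100% in the 11 lung libraries with any Trdv count. These lung shares rest on few counts, 2 to 35 Trdv counts in a library. In CPM, Trdv4 was not higher in the thymus-like libraries, with 0.156 to 0.281 CPM there and 0 to 1.48 CPM in lung. The alpha and beta members were chosen by counts that came mostly from the thymus-like libraries, so they give no contrast here. Trgv6 had 10 counts in the thymus-like and 64 in the lung libraries, while Trgv2 had 299 and 80 and Trgv4 187 and 69. DMSO 4 held the most Trdv4 counts of any library, 29, and silica 2 followed with 20. Trgv counts per 100 Trbv counts were 1.64 to 2.46 in the thymus-like and 3.33 to 19.5 in the lung libraries. These rows were looked at after their values were seen and were not tested.

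Trav7n-6 had 35 counts in silica_DMSO 4 and 0 in the other 14 libraries, while Trav7d-6 had 0 in silica_DMSO 4, 20.61 in DMSO 7 and 30 in silica_DMSO 6. The files do not say how reads were divided between such copies.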
